A study of Mus musculus with 6 samples.

Results

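The genes of autophagy and mitophagy are described here in irradiated NIH3T3 cells, an immortalised line of mouse embryo fibroblasts. All 40 rows of the deposited table whose symbol starts with Atg and a digit, or is 1 of 22 further named autophagy genes, were taken as members, out of 21878 rows. RNA-seq libraries came from cells treated with exosomes (3 libraries) and from cells given PBS, phosphate-buffered saline (3 libraries). Both groups carry a radiation injury per the labels and were taken at 72 h. The series title calls the exosomes, small membrane vesicles shed by cells, plasma-derived. The labels give no radiation dose, no source of the plasma and no exosome amount. The 6 libraries of the series include no unirradiated group, and whether replicates were grown apart is not stated. P-values therefore measure only how far these libraries vary, which may be technical variation.

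Autophagy encloses cytoplasm in a membrane sac, the autophagosome, which fuses with the lysosome. The ULK kinase complex starts the process, a class III phosphatidylinositol 3-kinase complex marks the membrane with the lipid PI3P, and ATG9 and ATG2 supply membrane. A ubiquitin-like conjugation system then attaches the small Atg8 proteins (LC3 and GABARAP) to the sac, where they bind receptors that carry cargo. In mitophagy the cargo is mitochondria, marked either by PINK1 and Parkin or by the outer membrane receptors BNIP3 and BNIP3L. Lysosomal breakdown also removes part of the Atg8 and receptor proteins, so RNA levels do not give autophagic flux.

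Levels are FPKM, fragment numbers divided by transcript length and by library depth, so that levels of different genes can be compared. Changes are differences of log2(FPKM + 1), exosomes minus PBS, ± standard error (SE), and levels are means ± SD (n = 3 libraries per group). A gene was said to rise or fall where limma's Benjamini-Hochberg adjusted p, taken over all tested genes, was under 0.05. An estimated 18800000 to 22000000 reads were counted per library, and replicates correlated across genes at 0.994 to 0.997. Fibroblast markers summed to 5061 to 5185 FPKM with PBS and 5927 to 6300 with exosomes (9 of 9 markers in the table, 8 tested). Leukocyte markers, 9 of 10 in the table and 2 tested, summed to 7.34 to 11.9 FPKM with PBS and 4.46 to 5.28 with exosomes. Cd3e was listed at 0 in all 6 libraries, and the part of these markers in the results below was not tested. Platelet markers, 5 of 5 in the table and 1 tested, summed to 2.63 to 4.43 FPKM with PBS and 3.28 to 4.18 with exosomes. Of these Itga2b was at 1.57 to 2.36 FPKM with PBS and 2.70 to 2.93 with exosomes. Ppbp overlapped between the groups, at 0.858 to 2.07 FPKM with PBS and 0.574 to 1.25 with exosomes. Pf4 was at 0.143 FPKM in PBS replicate 1 and at 0 in every other library. Gp9 and Gp1ba were at 0 in all 6 libraries. Erythroid markers, 6 of 7 in the table and 0 tested, summed to 1.03 to 1.65 FPKM with PBS and 0.699 to 2.02 with exosomes. Epithelial and endothelial sums were at most 0.547 and 0.535 FPKM in any library.

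Bnip3, the mitophagy receptor, fell 2.93-fold with exosomes, and Atg12, the ubiquitin-like protein that is joined to ATG5, rose 1.75-fold. Of the 17 called members, 14 changed by less than 0.5 on the log2 scale. Of the 40 members 38 were tested, and 10 rose, 7 fell and 21 did not pass. The 17 called members are 44.7% of those tested, against 43.8% of all 10274 tested genes. Raised members were 26.3% against 25.4% of all tested genes, and lowered members 18.4% against 18.4%. The shares are near the background, so these counts are not a result about the members as a group. The counts by role below rest on 3 to 7 tested genes each and stand beside the same shares of all tested genes. Their median log2 change was 0.05, and that of all tested genes 0.04. Atg10 and Atg16l2 were below 1 FPKM in every PBS library and passed the filter only through the exosome libraries. Without them 8 of 36 members rose. Without exosome replicate 2 or without exosome replicate 3 the count of raised members was 6, and Atg10 and Atg16l2 were then no longer tested.

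**Figure D1:**
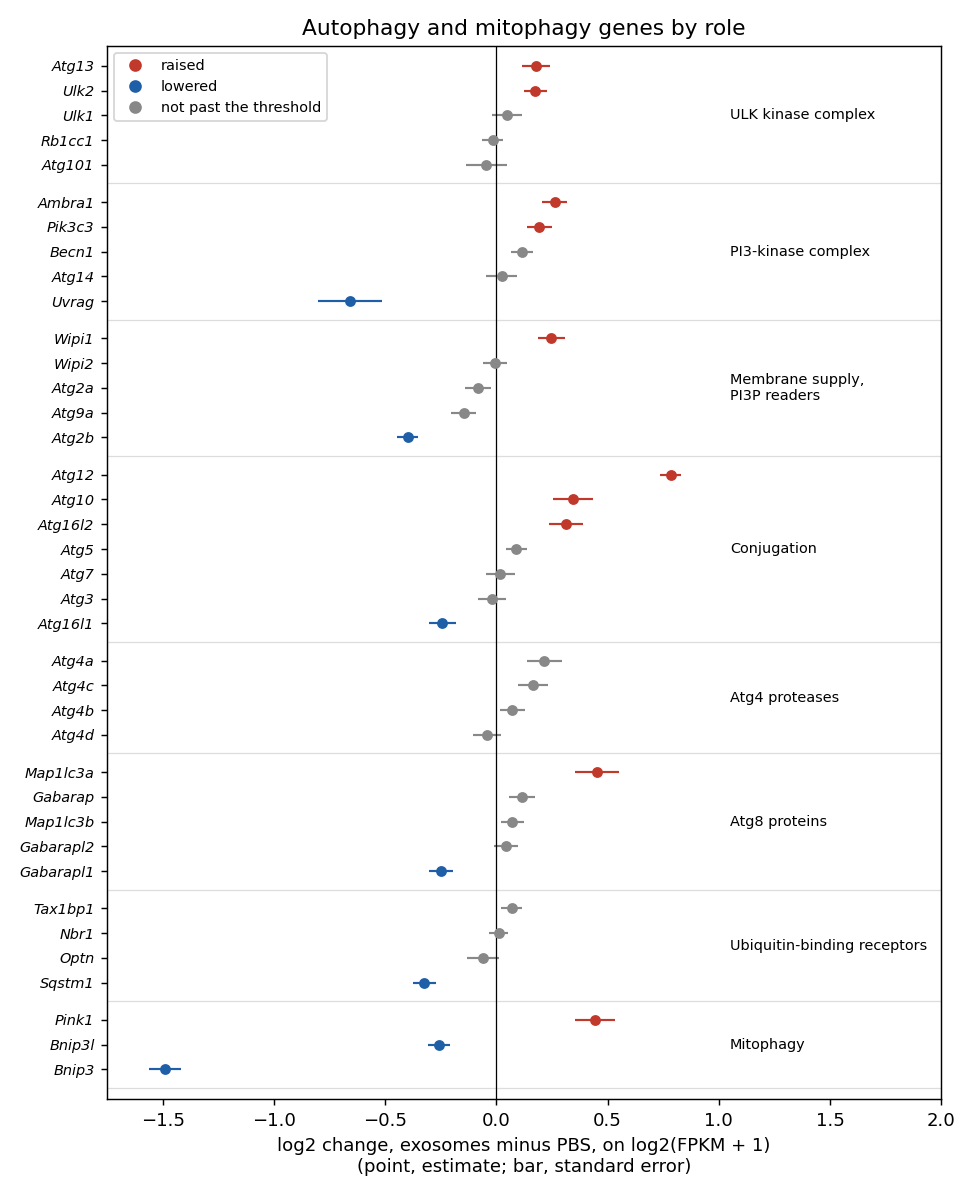
Log2 change (horizontal axis, exosomes minus PBS on log2(FPKM + 1), point with standard error bar) of the 38 tested members, grouped by role; red, raised; blue, lowered; grey, not past the threshold. Bnip3 at −1.49 and Atg12 at 0.78 lie farthest from 0, and raised and lowered genes occur together in 5 of the 8 roles.

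Of the 3 tested mitophagy genes 1 rose (33.3%, against 25.4% of all tested genes) and 2 fell (66.7%, against 18.4%). Bnip3 (Entrez 12176) was at 47.6, 54.8 and 44.0 FPKM in PBS replicates 1 to 3. It was at 16.4, 16.5 and 17.1 FPKM in exosome replicates 1 to 3. The exosome libraries were closely alike, and their highest value lay far below the lowest PBS value. The mean fell 2.93-fold, from 48.8 ± 5.52 to 16.7 ± 0.354 FPKM, a difference of −1.49 ± 0.07 on the log2 scale (adjusted p = 1.15e-06). In the authors' deposited table, which rests on counts, Bnip3 has a fold of 0.333. It was the member with the largest change, and 1 of 38 members to change by at least 2-fold on this scale. In a cell culture, less RNA per cell and fewer cells that express a gene cannot be told apart.

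Hypoxia-inducible factors are known to bind the letters ACGTG and to control Bnip3, so the stretch before its start is shown. The start and sequence are those of RefSeq for GRCm38.p6, whereas the submitters' notes name mm9 for the reads, and no position of the reads was used. The stretch lies on chromosome 7, minus strand, at chr7:138909520-138909756, is given 5′ to 3′, ends before the first base of any annotated Bnip3 transcript, and has matches to ACGTG on either strand in capitals.
Bnip3: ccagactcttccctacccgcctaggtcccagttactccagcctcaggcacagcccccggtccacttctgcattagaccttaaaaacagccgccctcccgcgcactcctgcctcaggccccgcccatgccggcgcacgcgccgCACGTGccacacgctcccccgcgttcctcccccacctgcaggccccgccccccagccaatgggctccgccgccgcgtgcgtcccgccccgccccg
The capitals spell CACGTG, a palindrome that holds ACGTG on both strands, at −108 from the RefSeq start. Across 32851 promoters of 250 bases in the same tables, 16.6% held ACGTG and 6.02% held CACGTG on either strand. A match is a description of letters and not a site of binding.

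Bnip3l (Entrez 12177), the paralog of Bnip3 and a receptor for mitophagy in maturing red cells, was at 22.8, 23.6 and 22.3 FPKM in PBS replicates 1 to 3. It was at 19.8, 18.8 and 18.3 FPKM in exosome replicates 1 to 3, below all PBS values. Its mean fell from 22.9 ± 0.641 to 19.0 ± 0.766 FPKM, a difference of −0.26 ± 0.05 on the log2 scale (adjusted p = 0.00246). The fall was thus much smaller than that of Bnip3, and the order of the paralogs turned. Bnip3 stood at 2.09, 2.33 and 1.97 times the Bnip3l level in the PBS libraries, and at 0.831, 0.880 and 0.934 times in the exosome libraries.

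Pink1 (Entrez 68943), the kinase that gathers on damaged mitochondria, moved the other way. It was at 12.2, 13.9 and 11.1 FPKM with PBS and at 19.4, 16.3 and 15.9 FPKM with exosomes, with no overlap. The mean rose from 12.4 ± 1.42 to 17.2 ± 1.91 FPKM, a difference of 0.44 ± 0.09 on the log2 scale (adjusted p = 0.00439). Pink1 stood at 0.251 to 0.256 times the Bnip3 level in the PBS libraries, and at 0.931 to 1.18 times in the exosome libraries. Park2, which encodes Parkin, the ubiquitin ligase that PINK1 activates, was not tested. It was listed at 0 to 0.00851 FPKM with PBS and at 0.00383 to 0.0173 FPKM with exosomes, and the authors' deposited mean over all libraries is 2.48 normalized counts. A difference in Park2 was not detectable at this depth.

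**Figure D2:**
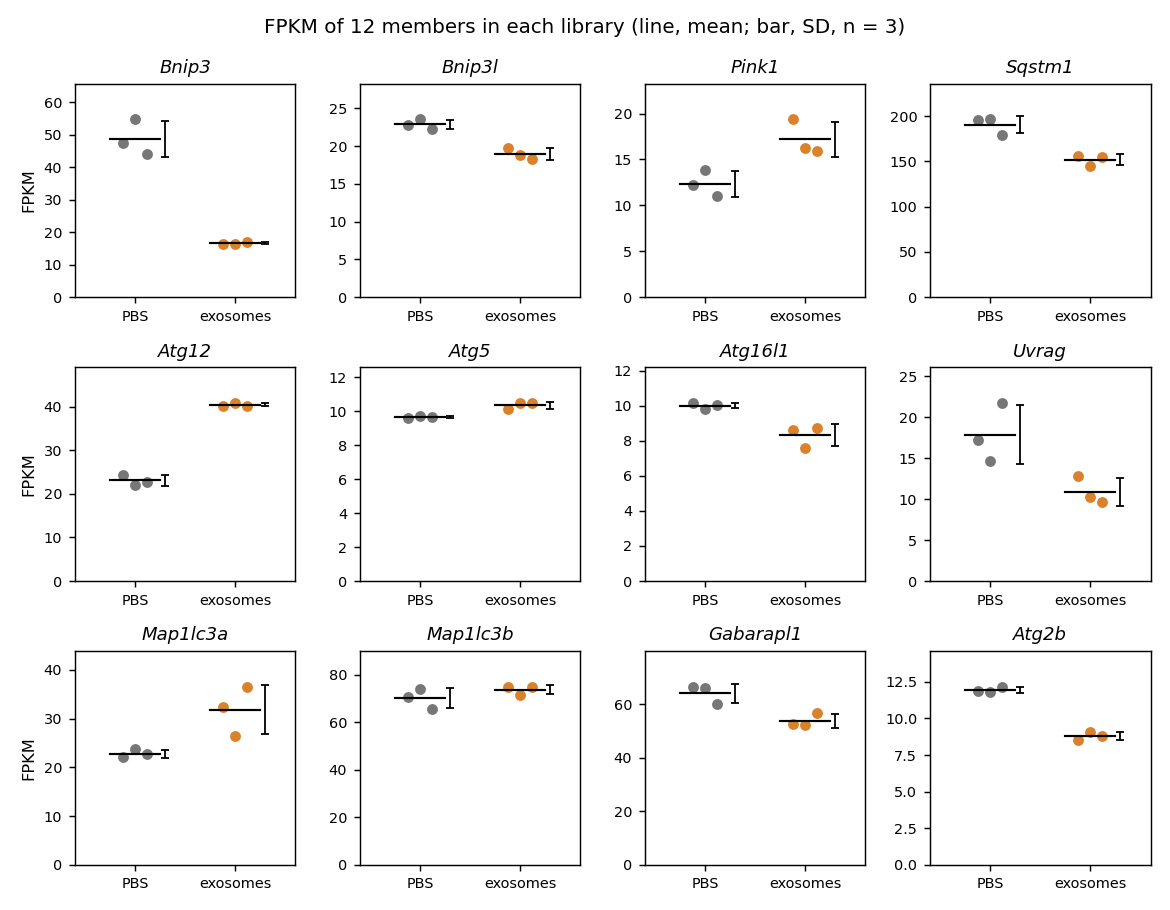
FPKM (vertical axis, from 0) of 12 members in each of 3 PBS and 3 exosome libraries; points are libraries, lines are means and bars are SD. Bnip3 and Atg12 separate the groups most widely, while Map1lc3b overlaps and the 3 PBS values of Uvrag spread from 14.7 to 21.7.

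In the conjugation system 3 of 7 genes rose (42.9%, against 25.4% of all tested genes). A fall was seen in 1 (14.3%, against 18.4%), and 3 did not pass. Without Atg10 and Atg16l2, which were tested only through their exosome values, 1 of 5 rose. Atg12 (Entrez 67526) was at 24.3, 22.0 and 22.8 FPKM in PBS replicates 1 to 3 and at 40.2, 40.8 and 40.2 FPKM in exosome replicates 1 to 3. The exosome values were nearly equal and well above all PBS values. The mean rose from 23.1 ± 1.19 to 40.4 ± 0.360 FPKM, a difference of 0.78 ± 0.05 on the log2 scale (adjusted p = 4.07e-06), and the authors' deposited table gives a fold of 1.71. Atg5, the partner to which ATG12 is bound, was at 9.61 to 9.71 FPKM with PBS and at 10.1 to 10.5 FPKM with exosomes. These values did not overlap either, but the log2 change was 0.09 ± 0.05 and did not pass (adjusted p = 0.145). The ratio of Atg12 to Atg5 was 2.53, 2.27 and 2.36 in the PBS libraries and 3.97, 3.90 and 3.84 in the exosome libraries.

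Atg10, the E2-like enzyme that passes ATG12 to ATG5, was low in all libraries, at 0.784, 0.990 and 0.657 FPKM with PBS and 1.47, 1.28 and 1.15 FPKM with exosomes. It rose by a log2 change of 0.35 ± 0.09 (adjusted p = 0.0115), a call that rests on a gene that passed the filter only where it was high, and the authors' deposited fold is 1.69. Atg16l1, which brings the ATG12-ATG5 conjugate to the membrane, was at 10.1, 9.83 and 10.02 FPKM with PBS and at 8.63, 7.58 and 8.71 FPKM with exosomes. It fell with no overlap (log2 change −0.24, adjusted p = 0.00933). Its paralog Atg16l2 was at 0.956, 0.754 and 0.774 FPKM with PBS and at 1.36, 1.29 and 1.15 FPKM with exosomes, and rose (0.31 ± 0.08, adjusted p = 0.00886), with the same limit as Atg10. Atg16l1 was the more abundant of the paralogs in all 6 libraries. Atg7, the E1-like enzyme that activates both conjugation arms, did not pass, with means of 3.95 ± 0.196 and 4.01 ± 0.284 FPKM in PBS and exosome libraries. Atg3, the E2-like enzyme of the Atg8 arm, did not pass either, with means of 14.3 ± 1.22 and 14.1 ± 0.355 FPKM.

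Among the 5 Atg8 genes, 1 rose (20.0%, against 25.4% of all tested genes), 1 fell (20.0%, against 18.4%) and 3 did not pass. By level the order in PBS was Gabarap (259 ± 13.6 FPKM), Map1lc3b (70.2 ± 4.13), Gabarapl1 (64.1 ± 3.53), Gabarapl2 (31.4 ± 0.430) and Map1lc3a (22.8 ± 0.814). The ranges of Map1lc3b and Gabarapl1 overlapped in PBS, and those of the other neighbours did not. Map1lc3b, whose protein LC3B is the usual marker of autophagosomes, was at 70.9, 74.0 and 65.8 FPKM with PBS and at 75.0, 71.7 and 74.7 FPKM with exosomes. The groups overlapped (log2 change 0.07 ± 0.05, adjusted p = 0.274). Map1lc3a (Entrez 66734) was at 22.1, 23.7 and 22.7 FPKM with PBS and at 32.4, 26.5 and 36.5 FPKM with exosomes. All exosome values lay above the PBS values but were spread widely, and the mean rose from 22.8 ± 0.814 to 31.8 ± 5.05 FPKM (0.45 ± 0.10, adjusted p = 0.00666). Gabarapl1 was at 66.4, 65.9 and 60.1 FPKM with PBS and at 52.6, 52.0 and 56.8 FPKM with exosomes, and fell with no overlap (−0.25 ± 0.05, adjusted p = 0.00530). Gabarap and Gabarapl2 changed by 0.11 ± 0.06 and 0.04 ± 0.05 and did not pass.

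With exosomes Gabarapl1 lay below Map1lc3b without overlap, at 0.702 to 0.760 times its level, against 0.891 to 0.937 times with PBS. Map1lc3a then overlapped with Gabarapl2, which was at 30.5 to 34.9 FPKM in the exosome libraries. Map1lc3a came to 0.312 to 0.345 times the Map1lc3b level with PBS and 0.369 to 0.489 times with exosomes. The sum of the 5 genes overlapped between the groups, at 430 to 470 FPKM with PBS and 447 to 493 FPKM with exosomes (exact two-sided permutation p = 0.2). Gabarap made up 57.9% ± 0.810 of this sum with PBS and 59.4% ± 1.22 with exosomes (exact permutation p = 0.3). In all, 11 such ratios, sums and shares were compared, chosen after the values of the genes had been seen, and with 3 against 3 libraries the exact test cannot go below 0.1. The 9 quantities whose groups did not overlap reached that smallest value (0.122 when adjusted over the 11). The Atg4 proteases trim the Atg8 proteins before and after conjugation. They did not pass in 4 of 4 cases (0.0% called, against 43.8% of all tested genes). Of these Atg4a came nearest, at 3.16 to 3.20 FPKM with PBS and 3.30 to 4.24 with exosomes (adjusted p = 0.0510). Atg4a passed under upper quartile scaling (adjusted p = 0.0417), in limma without trend and robust estimation (0.0462) and without exosome replicate 2 (0.0106), and Atg4c passed in limma without trend and robust estimation.

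Of the 4 ubiquitin-binding receptors 1 fell (25.0%, against 18.4% of all tested genes), 0 rose (0.0%, against 25.4%) and 3 did not pass. Sqstm1 (Entrez 18412), which encodes the cargo receptor p62, is also a target of the antioxidant factor NRF2 and was the most abundant receptor. It was at 196, 197 and 179 FPKM with PBS and at 156, 145 and 155 FPKM with exosomes. All exosome values were below all PBS values, and the mean fell from 191 ± 9.71 to 152 ± 5.82 FPKM, a difference of −0.32 ± 0.05 on the log2 scale (adjusted p = 0.00113). Its relative Nbr1 stayed within 22.8 to 23.8 FPKM in all 6 libraries (0.01 ± 0.04, adjusted p = 0.848). Tax1bp1 and Optn did not pass, with changes of 0.07 ± 0.05 and −0.06 ± 0.07. Sqstm1 made up 72.7% to 73.9% of the summed FPKM of these receptors with PBS and 66.3% to 68.9% with exosomes.

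**Figure D3:**
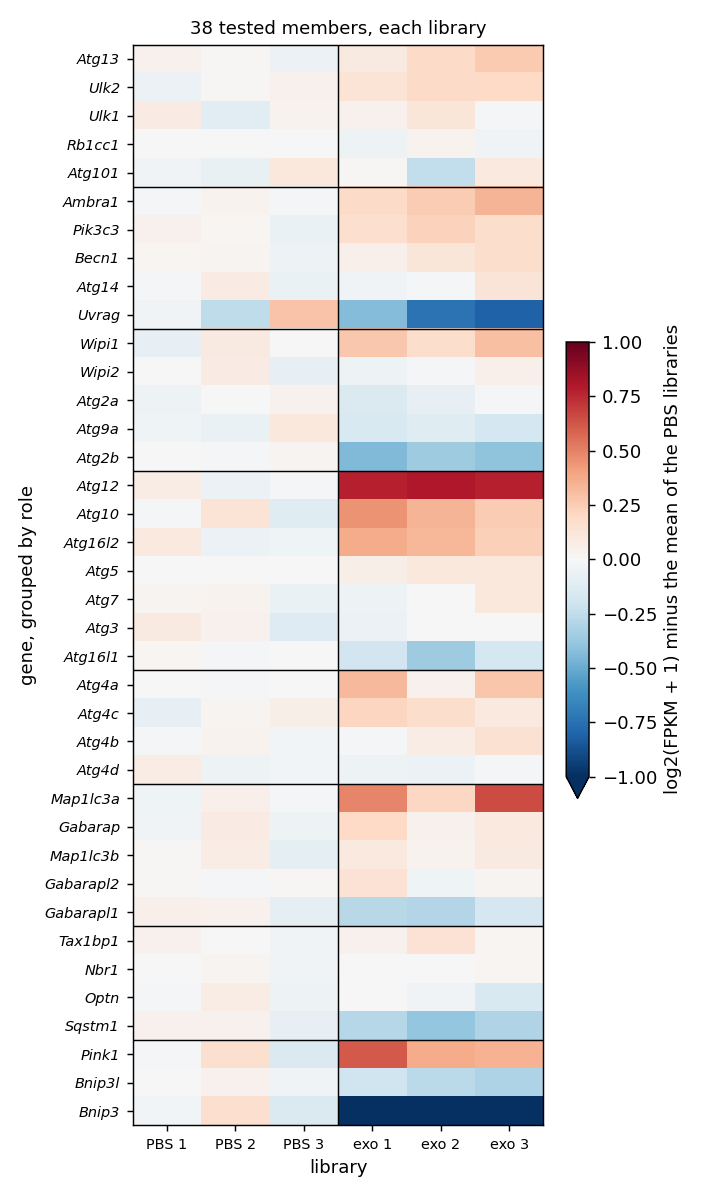
Each tested member (rows, grouped by role) in each library (columns), coloured by log2(FPKM + 1) minus the mean of the PBS libraries; the colour scale ends at ±1, which Bnip3 exceeds in all exosome libraries. Atg12 is evenly high in the 3 exosome libraries, and Map1lc3a and Pink1 vary among them.

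At the start of the pathway, 2 of 5 genes of the ULK complex rose (40.0%, against 25.4% of all tested genes). Of the 5 genes, 0 fell (0.0%, against 18.4%) and 3 did not pass. Ulk1, the best studied of the kinases, was at 7.30, 6.27 and 7.03 FPKM with PBS and at 7.11, 7.53 and 6.73 FPKM with exosomes, and the groups overlapped (log2 change 0.05 ± 0.07, adjusted p = 0.582). Ulk2, its paralog, was at 8.78, 9.28 and 9.50 FPKM with PBS and at 10.2, 10.6 and 10.7 FPKM with exosomes (0.18, adjusted p = 0.0199). Atg13, the adaptor of the complex, was at 5.78, 5.64 and 5.31 FPKM with PBS and at 5.98, 6.50 and 6.89 FPKM with exosomes (0.18, adjusted p = 0.0415). Both were called raised, but the Atg13 call held in 6 of 15 other settings and the Ulk2 call in 10 of 15. Among the settings that ended both calls were the removal of PBS replicate 1 (adjusted p = 0.0627 for Atg13 and 0.0841 for Ulk2), of exosome replicate 2 (0.103 and 0.0614) and of exosome replicate 3 (0.148 and 0.0636). Both calls also ended with all libraries kept, under TPM scaling (adjusted p = 0.0692 for Atg13 and 0.0543 for Ulk2) and median-of-ratios scaling (0.0756 and 0.0515). Removing PBS replicate 2 or PBS replicate 3 ended the Atg13 call alone (0.0629 and 0.115). Neither gene passes in the authors' deposited table (adjusted p = 0.251 and 0.0780). Rb1cc1, the scaffold FIP200, and Atg101 did not pass.

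In the PI3-kinase complex 2 of 5 genes rose (40.0%, against 25.4% of all tested genes). A fall was seen in 1 (20.0%, against 18.4%), and 2 did not pass. Uvrag (Entrez 78610), which forms the form of the complex linked to endosomes and autophagosome maturation, was at 17.2, 14.7 and 21.7 FPKM with PBS and at 12.8, 10.2 and 9.64 FPKM with exosomes. The groups did not overlap, although the PBS values were widely spread (coefficient of variation 19.9%, against a median of 5.12% over the tested members). The mean fell from 17.9 ± 3.57 to 10.9 ± 1.70 FPKM, a difference of −0.66 ± 0.14 on the log2 scale (adjusted p = 0.00723). Atg14, which takes the place of UVRAG in the form that starts autophagosomes, was at 2.97 to 3.39 FPKM with PBS and 3.06 to 3.54 with exosomes and did not pass (0.02 ± 0.07, adjusted p = 0.809). Uvrag stood at 5.54, 4.32 and 7.31 times the Atg14 level with PBS, and at 4.19, 3.30 and 2.72 times with exosomes.

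Uvrag was 1 of 3 lowered members, beside Bnip3 and Atg2b, with ACGTG in the 250 bases before the RefSeq start. Its sequence is shown for comparison with that of Bnip3 above, on the minus strand at chr7:99141168-99141394 of GRCm38.p6, 5′ to 3′ and again ending before any annotated Uvrag transcript, with the match in capitals.
Uvrag: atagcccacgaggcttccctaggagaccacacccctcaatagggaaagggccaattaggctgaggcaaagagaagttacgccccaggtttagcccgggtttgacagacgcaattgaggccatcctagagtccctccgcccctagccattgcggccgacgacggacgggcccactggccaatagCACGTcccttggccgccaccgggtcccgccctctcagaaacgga
Here the letters CACGT are ACGTG read on the other strand, at −67 from the RefSeq start, and they do not form the palindrome seen in Bnip3. The promoters shown were chosen after these matches had been seen. Of 32 members with a RefSeq promoter, ACGTG was found in 3 of 5 that fell, 0 of 7 that rose and 10 of 19 that did not pass. It stood in 13 of 36 member promoters, against 16.6% of all promoters, and mostly in members that did not pass. Whether these letters bear on the changes was not tested. CACGTG was found in 4 members, Bnip3 and the uncalled Atg3, Atg5 and Atg7. The letters TGANNNNGC are a looser pattern than the core of the antioxidant response element, so a match need not hold that core. They may overlap ACGTG, and stood in 4 of 7 raised, 2 of 5 lowered and 9 of 19 uncalled members. In all promoters of the table the share with TGANNNNGC was 35.2%. GTAAACA, a core of FOXO and other forkhead sites, was found in 0 of 36 member promoters and in 3.17% of all promoters. No match says only that these letters are absent from this window.

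Becn1, the Beclin 1 subunit common to both forms of the kinase complex, was at 23.8, 24.0 and 22.6 FPKM with PBS and at 24.4, 25.6 and 26.6 FPKM with exosomes. The groups did not overlap, yet the change did not pass (0.12 ± 0.05, adjusted p = 0.0867). Ambra1, which binds Beclin 1 and stabilises ULK1, was at 6.34, 6.58 and 6.32 FPKM with PBS and at 7.47, 7.84 and 8.36 FPKM with exosomes, and rose (0.26 ± 0.06, adjusted p = 0.00485). Pik3c3, the catalytic subunit VPS34, was at 5.68, 5.57 and 5.18 FPKM with PBS and at 6.27, 6.61 and 6.33 FPKM with exosomes (0.19, adjusted p = 0.0194). The Pik3c3 call was lost without PBS replicate 3 (adjusted p = 0.0651) and without exosome replicate 2 (0.0695), and Pik3c3 does not pass in the authors' deposited table (adjusted p = 0.164).

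Of the genes for membrane supply and for reading PI3P, 1 of 5 tested rose (20.0%, against 25.4% of all tested genes). A fall was seen in 1 (20.0%, against 18.4%), and 3 did not pass. Atg2b (Entrez 76559), which encodes a lipid transfer protein between the endoplasmic reticulum and the growing sac, was at 11.9, 11.8 and 12.2 FPKM with PBS and at 8.54, 9.09 and 8.81 FPKM with exosomes. Both groups were tight and well apart, and the mean fell from 11.9 ± 0.195 to 8.81 ± 0.274 FPKM, a difference of −0.40 ± 0.05 on the log2 scale (adjusted p = 0.000229). Its paralog Atg2a was at 5.81 to 6.25 FPKM with PBS and 5.35 to 5.94 with exosomes and did not pass (−0.08 ± 0.06, adjusted p = 0.265). Atg2a came to 0.488 to 0.514 times the Atg2b level with PBS and 0.619 to 0.675 times with exosomes. Wipi1, a PI3P reader, was at 10.4, 11.8 and 11.03 FPKM with PBS and at 13.6, 12.6 and 13.9 FPKM with exosomes, and rose (0.25, adjusted p = 0.00843). Its relative Wipi2, which recruits ATG16L1, was at 22.2 to 25.1 FPKM with PBS and 22.7 to 24.5 with exosomes and did not pass (−0.01 ± 0.06, adjusted p = 0.936). Atg9a, the lipid scramblase of the seed vesicles, did not pass here at 12.8 ± 0.901 and 11.5 ± 0.241 FPKM (−0.15 ± 0.06, adjusted p = 0.0603). Atg9a passed under median-of-ratios scaling (adjusted p = 0.0347) and without PBS replicate 2 (0.0411). The authors' deposited table lists it as lowered (fold 0.843, adjusted p = 0.00658). Atg9b was not tested, at 0.344 to 0.618 FPKM in all 6 libraries.

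Over the 38 tested members the groups did not overlap in 22, or 57.9%, against 55.6% of all tested genes. These were the 17 called genes together with Atg4a, Atg4c, Atg5, Atg9a and Becn1. The 21 tested members that did not pass changed by −0.15 to 0.22 on the log2 scale. With the same threshold on the adjusted p of the authors' deposited table, 7 members count as raised and 8 as lowered, 15 in all. That threshold takes in 25.9% of all genes with an adjusted p there. Of those also tested here it takes in 36.6%, 16.8% raised and 19.8% lowered. Lowered genes thus outnumber raised ones in that source, unlike in the fit here. The median log2 of the authors' fold was −0.0105 over the tested members and −0.00615 over all tested genes. Of the 17 members called here 14 are called there in the same direction. Atg13, Pik3c3 and Ulk2 are called only here and Atg9a only there. Both sources start from the same libraries and are not independent.

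**Figure D4:**
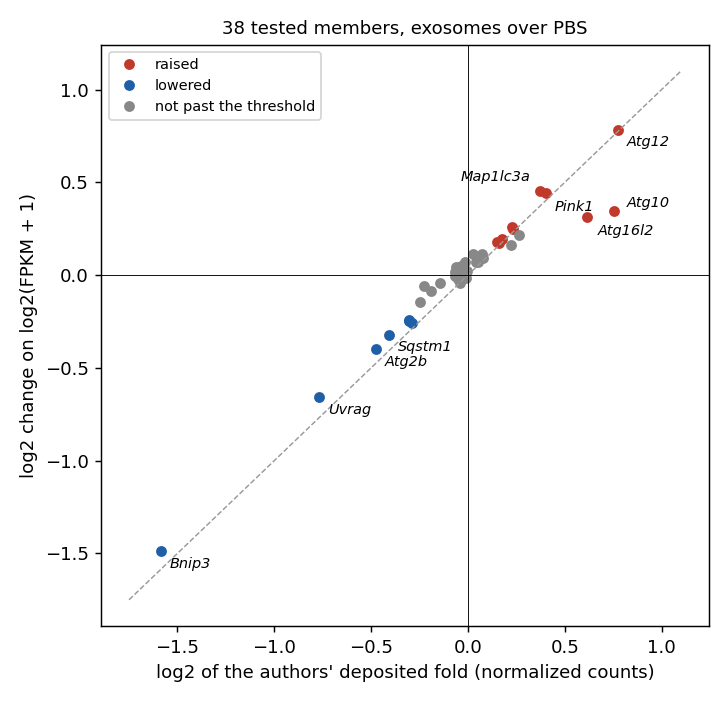
Log2 change on log2(FPKM + 1) (vertical axis) against the log2 of the authors' deposited fold from normalized counts (horizontal axis) for the 38 tested members; red, raised here; blue, lowered; grey, not past the threshold; the dashed line marks equality. Atg10 and Atg16l2, at low FPKM, lie below the line, since adding 1 shrinks low values.

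In the reference annotation GENCODE M21, 16 of the 40 members share exon sequence with another gene, 7 of them among the 17 called. For Bnip3 and Uvrag this is an antisense transcript, for Atg2b the gene Gskip, for Sqstm1 Mrnip, for Atg16l2 Fchsd2 and for Gabarapl1 1700101I11Rik, all on the opposite strand. Pink1 shares exon sequence with short RNA genes on its own strand. The kit marks strand, but the sources used here do not say whether the counting used it, so the levels of these genes are uncertain.

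Other genes of the pathway were taken from 5 lists of genes outside the members. Their counts stand beside 25.4% raised, 18.4% lowered and 43.8% called among all tested genes. In the list of fusion and maturation genes 3 of 18 rose, 3 fell and 12 did not pass, so that 33.3% were called (median log2 change −0.02). Epg5, a tether for fusion with the lysosome, fell from 5.95 ± 0.364 to 4.02 ± 0.406 FPKM (adjusted p = 0.000932). Plekhm1, an adaptor between RAB7 and the fusion machinery, fell from 7.14 ± 0.198 to 5.54 ± 0.0698 FPKM (adjusted p = 0.00116), and Rab7 itself, the late endosome GTPase, from 125 ± 3.96 to 108 ± 2.32 FPKM (adjusted p = 0.00406). Tecpr1, which also tethers autophagosomes to lysosomes, rose from 4.21 ± 0.0733 to 5.48 ± 0.393 FPKM (adjusted p = 0.00323), and Vps39 of the HOPS tethering complex from 4.36 ± 0.434 to 5.73 ± 0.371 FPKM (adjusted p = 0.00569).

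Of 17 tested other early genes 5 rose, 5 fell and 7 did not pass, so that 58.8% were called (median 0.00). Tbc1d14, a regulator of recycling endosomes that feed the growing sac, rose from 8.40 ± 0.282 to 10.1 ± 0.350 FPKM (adjusted p = 0.00467), and Sh3glb1, which binds UVRAG and Beclin 1, fell from 26.7 ± 1.09 to 22.6 ± 0.994 FPKM (adjusted p = 0.00564). Leaving out 1 library left 3 or 4 raised genes, 3 without PBS replicate 1, PBS replicate 3 or any single exosome library. It left 2 lowered genes without PBS replicate 1 or exosome replicate 2, and 3 without PBS replicate 3 or exosome replicate 3. Raised genes also numbered 3 with TPM or median-of-ratios scaling.

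In the list of other selective receptors and mitophagy regulators 9 of 24 tested genes rose, 4 fell and 11 did not pass (median 0.09). Called genes made up 54.2% of the tested list. Calcoco1, a receptor for breakdown of the endoplasmic reticulum, rose from 16.4 ± 1.03 to 22.7 ± 1.51 FPKM (0.45 ± 0.06, adjusted p = 0.000508), and Ccpg1, another such receptor, from 9.80 ± 0.619 to 13.2 ± 0.676 FPKM (adjusted p = 0.000762). Gbas, which encodes the mitochondrial protein NIPSNAP2, rose from 23.9 ± 1.52 to 30.0 ± 0.477 FPKM (adjusted p = 0.00133). Tbk1, the kinase that phosphorylates several cargo receptors, fell from 18.2 ± 0.334 to 13.97 ± 0.943 FPKM (−0.36 ± 0.06, adjusted p = 0.000783).

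Genes that control autophagy through mTORC1, the growth kinase complex that holds ULK1 inactive, and through AMPK, the energy sensor that activates it, were lowered in 11 of 27 tested cases, raised in 4 and not past the threshold in 12. These are 40.7% lowered and 14.8% raised, and the median was 0.00. Fnip2, a partner of folliculin, fell from 12.9 ± 0.0693 to 6.86 ± 0.308 FPKM (−0.83 ± 0.05, adjusted p = 4.07e-06). Flcn, which encodes folliculin, fell from 16.8 ± 0.602 to 12.1 ± 0.684 FPKM (adjusted p = 0.000278) and Rragc, the Rag GTPase that folliculin acts on, from 76.5 ± 0.720 to 58.5 ± 1.93 FPKM (adjusted p = 0.000138). Sesn3, a sestrin that restrains mTORC1, rose from 17.9 ± 1.16 to 28.1 ± 2.21 FPKM (0.62 ± 0.07, adjusted p = 0.000124), and Deptor, an inhibitor bound to mTOR, from 2.03 ± 0.301 to 3.25 ± 0.207 FPKM (adjusted p = 0.00144). The count of lowered genes was 6 without PBS replicate 1 and 6 without exosome replicate 2. With a filter of at least 5 FPKM, 2 raised genes were left.

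Among 13 transcription factors tied to autophagy genes 5 rose, 2 fell and 6 did not pass, so that 53.8% were called (median −0.06). Tfe3, a factor of lysosomal and autophagy genes, fell from 22.3 ± 0.599 to 15.9 ± 0.436 FPKM (−0.47 ± 0.05, adjusted p = 7.18e-05). Nfe2l2, which encodes NRF2, fell from 66.9 ± 2.10 to 49.9 ± 2.22 FPKM (−0.42 ± 0.05, adjusted p = 0.000163). Foxo4 rose from 5.32 ± 0.266 to 6.71 ± 0.116 FPKM (adjusted p = 0.00281) and Atf4, the factor of the integrated stress response, from 257 ± 2.85 to 301 ± 17.4 FPKM (adjusted p = 0.00648). Tfeb, the close relative of Tfe3, and Hif1a, a hypoxia-inducible factor, did not pass and were named after their values were seen. Tfeb was low, at 1.65 ± 0.286 and 1.53 ± 0.216 FPKM in PBS and exosome libraries (adjusted p = 0.604), and Hif1a was at 74.0 ± 12.7 and 64.0 ± 3.22 FPKM (adjusted p = 0.164). The count of raised factors was 3 without PBS replicate 1 and 3 without exosome replicate 2.

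**Figure D5:**
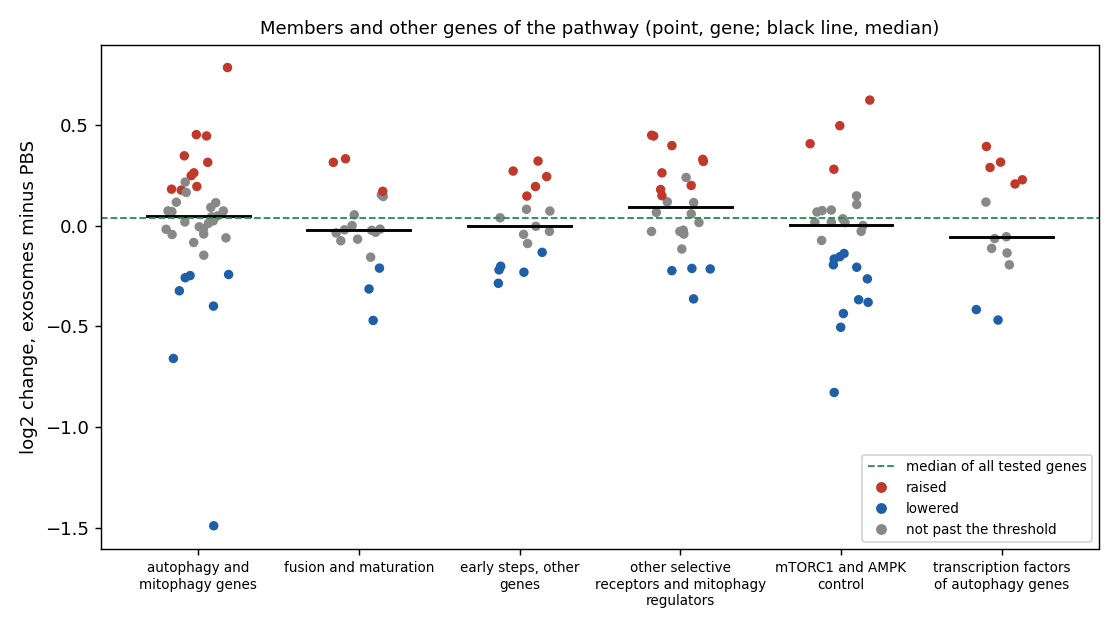
Log2 change (vertical axis, exosomes minus PBS) of the tested members and of 5 lists of other pathway genes; points are genes, black lines list medians, and the dashed green line the median of all tested genes, 0.04. The list medians lie between −0.06 and 0.09, and in the list of mTORC1 and AMPK control 11 of 27 genes are lowered and 4 raised, against 18.4% and 25.4% of all tested genes.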

How the data were processed

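RNA of 6 NIH3T3 samples was sequenced as stranded paired-end mRNA libraries, per the labels' protocols. Cufflinks, HTSeq, DESeq, HISAT2, SAMtools, Trimmomatic, StringTie and Bowtie2 stand in the submitters' processing notes beside the build mm9, without versions or roles. The authors deposited expression values per library, read here as FPKM (the headers say only expression). They also deposited a signal (mean normalized count per group), a ratio (fold change, exosomes over PBS) and p-values with adjusted p-values, per the file headers. Counts per library were not used. Depth was estimated from the steps of the authors' group means, which were whole multiples of 3 library steps in 100% of 2362 (PBS) and 2441 (exosomes) genes with means under 3 (tolerance 2e-05).

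A gene was tested where 3 or more libraries reached 1 FPKM, on log2(FPKM + 1) with limma 3.58.1 in R 4.3.3 (trend, robust, group as the only term, two-sided), which was tested on simulated data. In 27 rows a date in place of a gene name was repaired by Entrez identifier. Members and lists were chosen with earlier results of these data known. Each called member is given by library, with full statistics for the 12 largest changes, beside Map1lc3b, Sqstm1, Becn1, Ulk1, Bnip3, Bnip3l and Pink1; from each list up to 3 called genes of smallest p per direction could be named. Promoter letters were searched in RefSeq sequences of GRCm38.p6, found for 32 of 40 members (36 starts). The alternatives were other pseudocounts, filters and scalings, a replicate block, limma without trend and robust estimation, and leaving out each library.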

Additional observations from a re-analysis of the deposited data

How the results depend on the processing

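No called member changed direction under any of the 15 alternatives run. Among members that did not pass, 9 with changes near 0 took the other sign under at least 1 alternative (Atg101, Atg14, Atg3, Atg7, Gabarapl2, Nbr1, Rb1cc1, Ulk1 and Wipi2), of which Atg14, Atg7 and Nbr1 did so under another scaling. Of the 17 called members, 12 kept the call and direction in all 15 alternatives, Pik3c3 in 13, Ulk2 in 10 and Atg13 in 6. Atg10 and Atg16l2 kept theirs in the 11 in which they were tested. At a minimum of 5 FPKM, or without any 1 exosome library, the filter removed both. Holding in these 11 therefore does not show that the 2 calls are stable. The count of raised members ran from 8 to 12 over the settings that keep all libraries, with 8 raised and 8 lowered under median-of-ratios scaling, and from 6 to 9 when 1 library was left out. Lowered members numbered 7 or 8 throughout. The median change over the members was 0.01 to 0.05 with all libraries and 0.02 to 0.06 without 1 of them, and over all genes 0.00 to 0.04 with all libraries. Among all genes, leaving out 1 library gave 2032 to 2619 raised and 1371 to 1814 lowered. In the list of early genes raised genes numbered 3 under TPM and under median-of-ratios scaling, and 3 to 4 without 1 library, where 2 to 4 were lowered. In the list of mTORC1 and AMPK control 2 genes were raised at a minimum of 5 FPKM, where fewer genes are tested, and 6 to 10 were lowered without 1 library. Of the transcription factors 3 to 5 were raised without 1 library. Apart from the smaller number of genes or libraries tested, the cause of these shifts was not tested.

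Same-numbered libraries did not deviate together (correlations −0.12, −0.02 and −0.29 for numbers 1 to 3), and no library correlated best with the one of the same number, so the numbers were not taken as pairs. With a replicate block 9 members were raised and 7 lowered, and only the Atg13 call among members was lost (adjusted p = 0.0832).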

Other observations

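The annotation in the deposited table ties a further 263 genes, outside the members and the 5 lists, to terms that contain autophagy or autophagic wording. Of 202 tested, 47 rose and 42 fell, which is 44.1% against 43.8% of all tested genes (median log2 change 0.02). Among those named after their values were seen, Trp53inp2, a nuclear protein that moves to autophagosomes, rose from 12.3 ± 0.409 to 22.3 ± 0.685 FPKM (n = 3 libraries per group, limma adjusted p = 3.76e-06). Smcr8, a partner of the C9orf72 protein, fell from 10.1 ± 0.0642 to 6.92 ± 0.495 FPKM (limma adjusted p = 0.000206).

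Terms of mitophagy are given for 39 genes outside the members and lists, of which 36 were tested, 1 rose and 12 fell (median −0.07). This is 36.1% called against 43.8% of all tested genes, of which 25.4% were raised and 18.4% lowered. The same terms are given for 31 of the 40 members, so they reach beyond the genes grouped as mitophagy above. The gene that rose was Capn10, from 7.11 ± 0.0633 to 8.76 ± 0.709 FPKM (limma adjusted p = 0.00725). Those that fell include Smurf1, a ubiquitin ligase, from 15.3 ± 0.745 to 12.02 ± 0.478 FPKM (limma adjusted p = 0.00124) and Cisd2, an iron-sulfur protein of the outer mitochondrial and endoplasmic reticulum membranes, from 12.03 ± 1.496 to 9.94 ± 0.473 FPKM (limma adjusted p = 0.0348). These terms were searched after the members' values had been seen, and no test of the set was made.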
